A study of Mus musculus with 4 samples.

Results

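The genes described here are 111 solute carrier (Slc) genes that were expressed in resting CD4 T cells from mouse spleen, compared between cells that lack the Ifitm gene family (IfitmF-/-) and wild-type (WT) cells. A gene was a member if a probe set named it alone, its symbol began with Slc and a number, and the mean log2 intensity of its brightest probe set over the 4 arrays was 7.5 or more. Of 364 Slc genes measured, 251 lay below this level and 2, Slc4a1 and Slc16a5, were left out by name. The array data named 19937 genes alone in all, of which 6970 reached the same level. The members were thus chosen by their mean level, which ran between 7.52 and 13.4 with a median of 8.5, and these levels are given as a description. Levels of different probe sets are not a scale between genes, so each gene was compared only with itself.

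Solute carriers are membrane proteins that move nutrients, ions, metals and metabolites into and out of cells and organelles, mostly by facilitated diffusion or coupled to a gradient of another solute. Families are numbered by sequence. In T cells, carriers of amino acids and glucose are present at a low level at rest and are raised after activation, when the cell grows, while mitochondrial carriers exchange metabolites across the inner membrane and the Slc35 family brings nucleotide sugars into the Golgi and endoplasmic reticulum. Of the members, 3 are not transporters by function (Slc7a6os, Slc9a3r1 and Slc4a1ap) and carry the name through a partner or a neighbour.

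Splenic CD4 T cells were purified from IfitmF-/- mice, which lack the entire Ifitm family (interferon-inducible transmembrane proteins), and from WT mice, all adults aged 6 to 8 weeks, and neither genotype was stimulated. Each genotype had 2 biological replicates, each 1 array of RNA from cells pooled from 2 mice. The paper describes red cell lysis and negative selection for CD4 T cells taken into skewing cultures, and calls the cells of the arrays purified CD4 T cells. Either way, the preparation could still hold other splenic cells. Ifitm3 had log2 intensities of 4.61 and 4.36 on the IfitmF-/- arrays and 9.26 and 8.91 on the WT arrays. Xist, the RNA of the inactive X chromosome, had 4.86 and 4.43 on the IfitmF-/- arrays and 11.32 and 11.25 on the WT arrays, while the Y-linked Uty had 9.01 and 8.83 on the IfitmF-/- arrays and 3.97 and 4.09 on the WT arrays. The IfitmF-/- arrays therefore carried the transcripts of males and the WT arrays those of females, and genotype and sex cannot be told apart in any result below. CD4 T cell markers (8 of 11 measured) averaged 11.74 and 11.7 on the IfitmF-/- arrays and 11.66 and 11.68 on the WT arrays. This near-equal mean held called changes in both directions. Cd3d (change 0.59), Cd3g (0.59) and Il7r (0.46) were called higher, and Ccr7 (-0.87) and Cd28 (-0.74) lower. B cell markers (7 of 8 measured) averaged 8.48 and 8.97 on the IfitmF-/- arrays and 10.08 and 8.58 on the WT arrays, and 6 myeloid markers 8.15 and 8.96 on the IfitmF-/- arrays and 8.73 and 8.05 on the WT arrays. The 5 plasma cell markers averaged 7.28 and 7.32 on the IfitmF-/- arrays and 8.21 and 7.81 on the WT arrays, and platelet markers (4 of 5 measured) averaged 9.15 and 10.47 on the IfitmF-/- arrays and 8.99 and 8.54 on the WT arrays. The 5 natural killer (NK) cell markers averaged 8.15 and 7.82 on the IfitmF-/- arrays and 7.83 and 7.45 on the WT arrays. Of these, Nkg7 was called lower (change -0.89), while 3 others were higher on both IfitmF-/- arrays and uncalled. The 6 neutrophil markers averaged 6.03 and 6.27 on the IfitmF-/- arrays and 5.68 and 6.05 on the WT arrays. Only Retnlg of them was called, and it was higher (mean level 6.16, change 1.83). The part of other cells in the results was not tested. In such bulk RNA, fewer cells of a type and less RNA per cell cannot be told apart.

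Every change is the log2 value of IfitmF-/- minus that of WT, with the standard error (SE) of the fit, and a gene was called at an adjusted p under 0.05 (limma, Benjamini-Hochberg over all 34760 probe sets). Of the 111 members, 28 (25.2%) were called, and in IfitmF-/- cells 14 (12.6%) of them were higher and 14 (12.6%) lower. Over all 19937 genes 8.57% were called, 4.96% higher and 3.61% lower. Over the 6970 genes of the same mean level 18.1% were called, 9.56% higher and 8.59% lower, and the difference of the members from this background was not tested. The median change was 0.06 over the members, 0.05 over all genes of that level and -0.02 over all genes, so the members had no common direction. The 14 that fell did so by 1.41 to 2.55-fold, with a median change of -0.95, and the 14 that rose did so by 1.37 to 2.53-fold, with a median change of 0.72. The plot of change against level shows the called genes on both sides of 0.

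**Figure D1:**
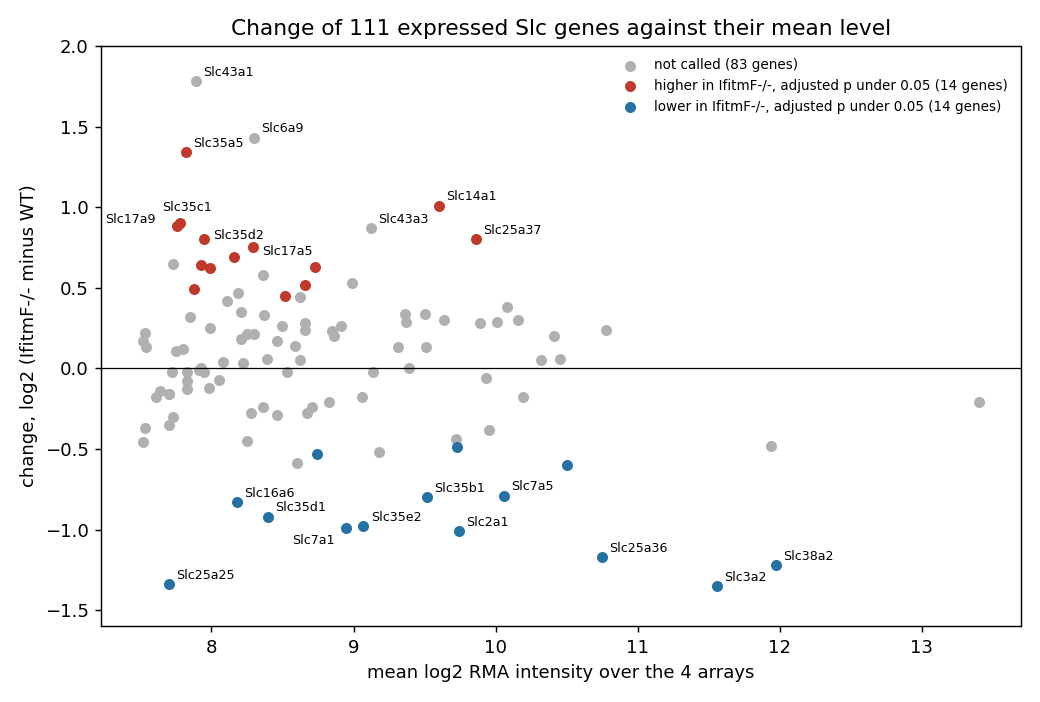
Change (log2, IfitmF-/- minus WT) of each of the 111 expressed Slc genes plotted over its mean level (log2 RMA intensity, 4 arrays), with 1 point for each gene, coloured by the limma call. The 14 lower genes lie between -1.35 and -0.49 and the 14 higher genes between 0.45 and 1.34, while Slc43a1 and Slc6a9 lie above them uncalled.

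In 86 members (77.5%) both IfitmF-/- arrays lay on the same side of both WT arrays, 51 above and 35 below, against 77.1% of all genes of that level. Non-overlap was therefore as frequent among the members as in the background and says little about any 1 gene. The filter of the study's methods, which adds to the adjusted p a fold over 2 and a spread of 250 linear units or more between arrays, left 6 members (5.41%), 4 lower and 2 higher, against 3.56% of all genes of that level. The 4 lower genes were Slc3a2, Slc38a2, Slc25a36 and Slc2a1, and the 2 higher were Slc35a5 and Slc14a1. When any 1 array was left out, limma called 0 members (lowest adjusted p between 0.0681 and 0.114) and 0 of all probe sets, so that these smaller fits could not separate the members by their calls. In these fits the changes of the called members lay between -1.4 and -0.44 for the lower genes and between 0.41 and 1.62 for the higher genes. That all 28 kept their direction was fixed in advance, because their arrays do not overlap between the genotypes.

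**Figure D2:**
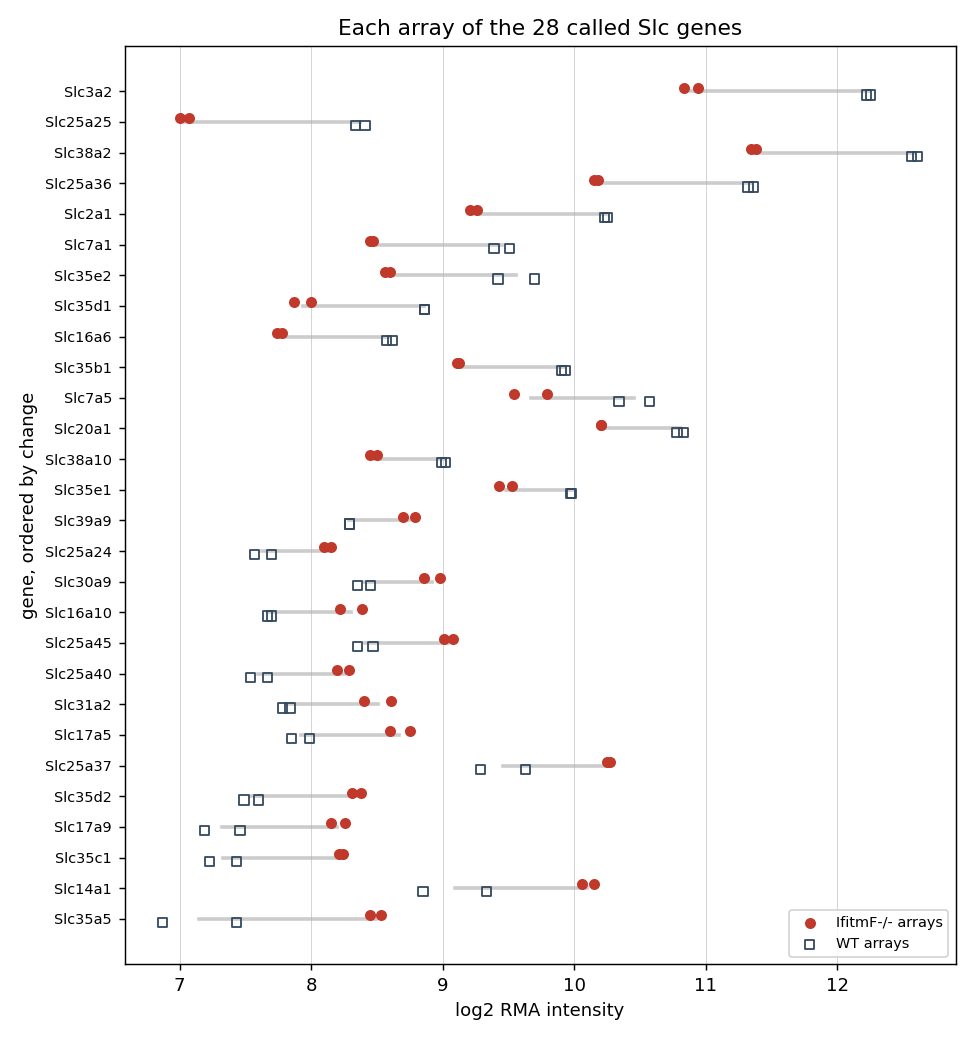
Log2 RMA intensity of the 28 called Slc genes on each array, ordered from the lowest to the highest change, with IfitmF-/- arrays as filled circles, WT arrays as open squares and a grey bar between the genotype means. The arrays of the genotypes do not overlap in any of the 28 genes, and the WT arrays of Slc35a5 (7.43 and 6.87) and Slc14a1 (8.85 and 9.33) lie far apart.

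Amino acid transporters were divided. Of the 16 members placed in this class by family, 5 fell and 0 rose, with a median change of -0.26. Among all genes of the members' level 9.56% rose and 8.59% fell, and the class was not tested against them. A further amino acid carrier, Slc16a10, which was placed with its family among the monocarboxylates, rose. The genes of the class that fell included both chains of the large neutral amino acid exchanger. Slc3a2, the heavy chain CD98 that brings several light chains to the cell surface, had log2 intensities of 10.83 and 10.94 on the IfitmF-/- arrays and 12.25 and 12.22 on the WT arrays, and was 2.55-fold lower in IfitmF-/- cells (change -1.35, SE 0.09, adjusted p = 0.0133). It was the member with the lowest change. Slc7a5, the light chain LAT1 that carries leucine and other large neutral amino acids, had 9.79 and 9.54 on the IfitmF-/- arrays and 10.34 and 10.57 on the WT arrays (change -0.79, SE 0.14, adjusted p = 0.0459). Its call was close to the threshold and was lost after renewed quantile normalization (adjusted p = 0.0502). Slc7a6, another light chain of CD98, had 8.79 and 9.05 on the IfitmF-/- arrays and 9.42 and 9.45 on the WT arrays and was not called (change -0.52, 95% interval -0.83 to -0.21, adjusted p = 0.0722).

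The sodium-coupled neutral amino acid transporter Slc38a2 (SNAT2), which takes up glutamine and alanine, had log2 intensities of 11.34 and 11.38 on the IfitmF-/- arrays and 12.56 and 12.61 on the WT arrays, and was 2.34-fold lower in IfitmF-/- cells (change -1.22, SE 0.08, adjusted p = 0.0136). Within each genotype the replicates lay within a small fraction of the difference. Slc7a1, the carrier of arginine and lysine, had 8.47 and 8.45 on the IfitmF-/- arrays and 9.39 and 9.51 on the WT arrays (change -0.99, SE 0.09, adjusted p = 0.0161). Slc38a10, a glutamine and glutamate carrier of the same family as Slc38a2, had 8.45 and 8.5 on the IfitmF-/- arrays and 8.99 and 9.02 on the WT arrays (change -0.53, SE 0.08, adjusted p = 0.0341). The other glutamine carriers changed less. Slc38a1 had 9.68 and 9.85 on the IfitmF-/- arrays and 10.17 and 10.12 on the WT arrays (change -0.38, adjusted p = 0.0942), and Slc1a5, the exchanger of glutamine and other neutral amino acids, averaged 10.1 ± 0.15 on the IfitmF-/- arrays and 10.28 ± 0.01 on the WT arrays (SD, n = 2 each; change -0.18, 95% interval -0.46 to 0.1, adjusted p = 0.363). The taurine transporter Slc6a6 had 9.35 and 9.43 on the IfitmF-/- arrays and 9.43 and 9.34 on the WT arrays, with a 95% interval of -0.23 to 0.23.

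Some carriers of this class that sit on the lysosome, where amino acids are returned to the cytosol, had positive changes that did not pass the test. Slc38a9, a lysosomal arginine sensor, had a change of 0.29 (adjusted p = 0.13) and Slc36a1, a proton-coupled carrier of small amino acids, one of 0.33 (adjusted p = 0.137), while its relative Slc36a4 had one of -0.35 (adjusted p = 0.0699). Slc16a10, which is named with the monocarboxylate family but carries aromatic amino acids, rose, with log2 intensities of 8.22 and 8.39 on the IfitmF-/- arrays and 7.7 and 7.67 on the WT arrays (change 0.62, SE 0.1, adjusted p = 0.0375). Plasma cells, which are rich in amino acid carriers, had markers that moved with the genes that fell. All 5 plasma cell markers were lower on both IfitmF-/- arrays (changes between -0.99 and -0.55, none called), and their summed linear intensity was between 1840 and 1974 on the IfitmF-/- arrays and between 2606 and 3844 on the WT arrays. Each of the 5 was higher on the first than on the second WT array, while Slc3a2 was nearly equal on the WT arrays (12.25 and 12.22) and Slc38a2, Slc7a1 and Slc7a5 were higher on the second. The part of plasma cell RNA in these changes was not tested. The positive end of the class, formed by Slc43a1, Slc6a9 and Slc43a3, is described with the red cell genes below.

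**Figure D3:**
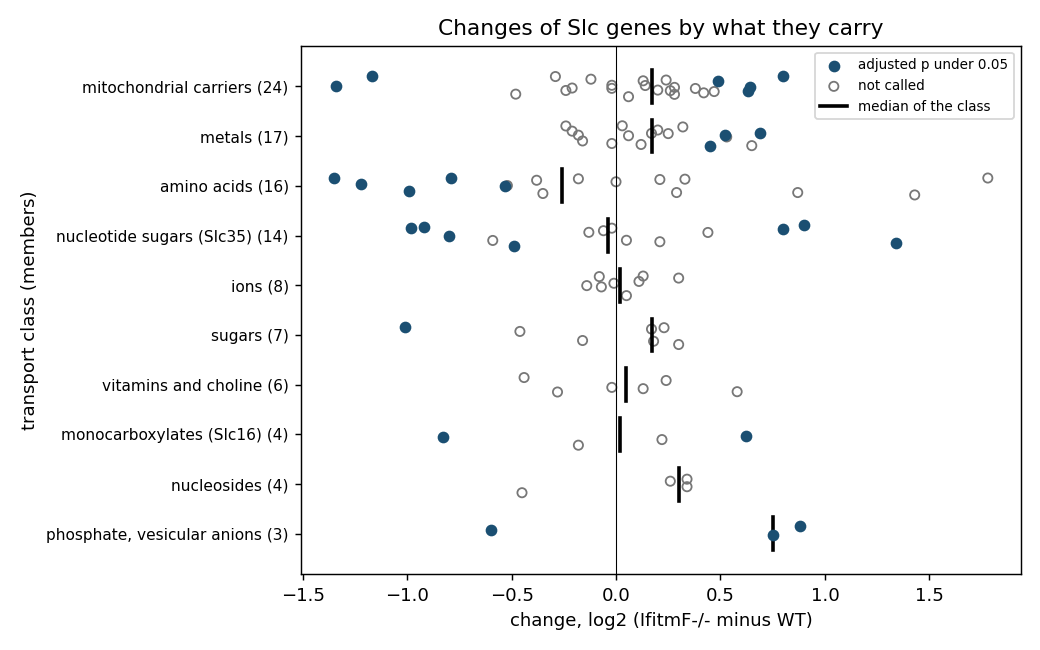
Change (log2, IfitmF-/- minus WT) of each Slc gene within the 10 transport classes of 3 or more transporter genes, with filled circles for called genes, open circles for uncalled genes and a black bar for the median of the class. The called genes of the amino acid class, which does not hold Slc16a10, all lie below 0 (median of the class -0.26), the called metal genes all lie above 0 (median 0.17), and the nucleotide sugar family has called genes on both sides (median -0.04).

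Glucose and phosphate uptake each had 1 gene that fell. Slc2a1, the glucose transporter GLUT1, had log2 intensities of 9.26 and 9.21 on the IfitmF-/- arrays and 10.25 and 10.23 on the WT arrays, and was 2.01-fold lower in IfitmF-/- cells (change -1.01, SE 0.08, adjusted p = 0.0141). Slc2a3 (GLUT3), the glucose transporter of higher affinity, had 8.84 and 9.09 on the IfitmF-/- arrays and 8.76 and 8.7 on the WT arrays and was not called (change 0.23, 95% interval -0.08 to 0.55, adjusted p = 0.292). The intervals of these 2 glucose transporters did not overlap (-1.22 to -0.8 for Slc2a1). No other of the 7 sugar transporters was called, including Slc50a1 (change 0.3, adjusted p = 0.106) and Slc5a3, the myo-inositol transporter (change -0.46, adjusted p = 0.166). Slc20a1, the sodium-phosphate cotransporter PiT1, had 10.2 and 10.2 on the IfitmF-/- arrays and 10.78 and 10.83 on the WT arrays (change -0.6, SE 0.08, adjusted p = 0.0274).

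In the monocarboxylate family Slc16a6 fell, with log2 intensities of 7.78 and 7.74 on the IfitmF-/- arrays and 8.62 and 8.57 on the WT arrays (change -0.83, SE 0.08, adjusted p = 0.018). In the liver this carrier is known to export ketone bodies. The lactate transporter Slc16a1 (MCT1) had 8.99 and 8.96 on the IfitmF-/- arrays and 8.99 and 9.31 on the WT arrays, with a 95% interval of -0.54 to 0.18. The lactate exporter Slc16a3 (MCT4) had a mean level of 7.19, below that of the members, and a change of -0.1 (adjusted p = 0.53).

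Mitochondrial carriers (Slc25) were the most numerous class, with 24 members, of which 4 rose and 2 fell, with a median change of 0.17. Among all genes of the chosen level 9.56% rose and 8.59% fell, and the class was not tested against them. The 2 carriers that fell were among the lowest changes of all members, though Slc25a25 reached the chosen level only through the WT arrays. Slc25a25, a calcium-regulated carrier that exchanges ATP-magnesium for phosphate, had log2 intensities of 7.0 and 7.07 on the IfitmF-/- arrays and 8.41 and 8.34 on the WT arrays, and was 2.53-fold lower in IfitmF-/- cells (change -1.34, SE 0.08, adjusted p = 0.0131). Slc25a36, which carries pyrimidine nucleotides, had 10.18 and 10.15 on the IfitmF-/- arrays and 11.32 and 11.36 on the WT arrays, and was 2.25-fold lower in IfitmF-/- cells (change -1.17, SE 0.08, adjusted p = 0.0138). The other probe set of Slc25a36 gave a change of -1.15 (adjusted p = 0.015). Another ATP-magnesium carrier, Slc25a24, moved the other way, with 8.1 and 8.15 on the IfitmF-/- arrays and 7.7 and 7.57 on the WT arrays (change 0.49, SE 0.09, adjusted p = 0.0498), although its call was lost with robust eBayes (adjusted p = 0.051) and after renewed quantile normalization (adjusted p = 0.0535). The third carrier of this group, Slc25a23, had a change of 0.42 (adjusted p = 0.111).

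Slc25a40, which is linked to the import of glutathione, had log2 intensities of 8.29 and 8.2 on the IfitmF-/- arrays and 7.54 and 7.67 on the WT arrays (change 0.64, SE 0.09, adjusted p = 0.0338), and its other probe set gave a change of 0.76 (adjusted p = 0.0215). The related Slc25a39 had a change of -0.02 (adjusted p = 0.953). Slc25a45 had 9.01 and 9.08 on the IfitmF-/- arrays and 8.47 and 8.35 on the WT arrays (change 0.63, SE 0.09, adjusted p = 0.032). The carriers that serve oxidative phosphorylation were not called. Slc25a5, an ADP/ATP translocase, had 13.25 and 13.34 on the IfitmF-/- arrays and 13.51 and 13.51 on the WT arrays (change -0.21, adjusted p = 0.197), with changes between -0.21 and -0.03 over its 3 probe sets. Slc25a4, the other translocase, had a change of 0.26 (adjusted p = 0.136), and the phosphate carrier Slc25a3 had 11.76 and 11.62 on the IfitmF-/- arrays and 12.13 and 12.23 on the WT arrays (change -0.48, adjusted p = 0.0587). Slc25a44, a carrier of branched-chain amino acids, had the lowest adjusted p of any uncalled member (change 0.47, adjusted p = 0.0555).

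In promoter windows, both mitochondrial carriers that fell held a short sequence that was no more frequent among members than among all genes. RefSeq promoter windows (250 before to 50 after a transcript start, GRCm38.p6) were found for 86 of the 111 members, 21 of the 28 called. They were searched on both strands for 4 letter patterns known for factors of nutrient, stress and activation responses, none of which contains another. The cAMP response element TGACGTCA was in 2 of 114 member windows (1.75%), against 1.79% of 32851 windows of all genes, and both were windows of genes that fell. The AP-1 pattern TGANTCA was in 5 member windows (4.39%) against 7.81% of all windows, and among called genes in 1 window each of Slc7a1 and Slc38a10, which both fell. The E-box CACGTG was in 17 member windows (14.9%) against 7.15% of all windows, among called genes in Slc20a1 and Slc25a36, which fell, and Slc31a2 and Slc35a5, which rose. The C/EBP-ATF pattern TGATGNAAT was in 0 member windows, against 0.965% of all windows. At so low a share, 0 of 114 windows says little. Slc7a5 had no window, and sequence outside the windows was not searched. A match of letters is a description and not a binding site, and binding was not measured. The 4 windows below are those of lower genes that held the cAMP response element or the AP-1 pattern, each printed 5′ to 3′ on the strand of the gene, with pattern letters in capitals. The element began 150 bases before the start of 1 of the 3 Slc25a25 windows (chr2:32424017-32424316, minus strand) and 161 bases before that of Slc25a36 (chr9:97110992-97111291, minus strand), where an E-box began at 187 bases. The AP-1 pattern began 123 bases before the start in Slc7a1 (chr5:148399855-148400154, minus strand) and 166 bases before it in Slc38a10 (chr11:120151302-120151601, minus strand).
Slc25a25: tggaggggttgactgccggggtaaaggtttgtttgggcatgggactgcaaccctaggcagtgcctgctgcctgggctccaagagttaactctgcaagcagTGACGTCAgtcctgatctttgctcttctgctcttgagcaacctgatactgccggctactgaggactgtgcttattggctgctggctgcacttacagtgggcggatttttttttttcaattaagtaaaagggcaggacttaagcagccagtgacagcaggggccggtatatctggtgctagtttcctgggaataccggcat
Slc25a36: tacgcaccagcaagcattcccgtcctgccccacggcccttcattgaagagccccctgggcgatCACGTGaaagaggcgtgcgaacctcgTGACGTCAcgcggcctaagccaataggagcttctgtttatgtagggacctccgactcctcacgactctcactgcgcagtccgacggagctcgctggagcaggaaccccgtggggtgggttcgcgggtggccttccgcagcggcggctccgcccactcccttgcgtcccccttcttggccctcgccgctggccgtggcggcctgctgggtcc
Slc7a1: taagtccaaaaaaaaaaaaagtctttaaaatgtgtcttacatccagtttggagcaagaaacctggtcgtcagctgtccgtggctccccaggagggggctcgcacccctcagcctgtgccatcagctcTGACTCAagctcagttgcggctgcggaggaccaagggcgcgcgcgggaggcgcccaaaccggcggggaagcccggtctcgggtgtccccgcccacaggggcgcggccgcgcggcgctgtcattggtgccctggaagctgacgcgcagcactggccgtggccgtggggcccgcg
Slc38a10: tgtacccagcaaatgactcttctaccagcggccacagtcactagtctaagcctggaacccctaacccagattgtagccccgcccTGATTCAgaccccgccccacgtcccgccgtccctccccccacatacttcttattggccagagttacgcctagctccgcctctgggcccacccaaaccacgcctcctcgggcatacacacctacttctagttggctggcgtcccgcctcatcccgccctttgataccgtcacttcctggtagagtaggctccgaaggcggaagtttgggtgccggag

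Carriers of the Slc35 family, which supply nucleotide sugars for glycosylation, moved in both directions. Of 14 members, 4 fell and 3 rose, while 8.59% of all genes of the members' level fell and 9.56% rose. The difference of the family from this background was not tested. Slc35e2, whose substrate is not known, had log2 intensities of 8.6 and 8.56 on the IfitmF-/- arrays and 9.42 and 9.7 on the WT arrays (change -0.98, SE 0.12, adjusted p = 0.0262). Slc35d1, an endoplasmic reticulum carrier of UDP-glucuronic acid and UDP-N-acetylgalactosamine, had 8.0 and 7.87 on the IfitmF-/- arrays and 8.86 and 8.86 on the WT arrays (change -0.92, SE 0.09, adjusted p = 0.018). Slc35b1, which brings ATP into the endoplasmic reticulum, had 9.11 and 9.12 on the IfitmF-/- arrays and 9.9 and 9.93 on the WT arrays (change -0.8, SE 0.08, adjusted p = 0.018). The last of the genes that fell was Slc35e1 (change -0.49, SE 0.08, adjusted p = 0.0429), another member without a known substrate.

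Slc35a5 rose, with log2 intensities of 8.45 and 8.53 on the IfitmF-/- arrays and 7.43 and 6.87 on the WT arrays, and was 2.53-fold higher in IfitmF-/- cells (change 1.34, SE 0.21, adjusted p = 0.0373). This was the largest rise among called members, though its WT arrays differed from each other by more than those of any other called Slc35 gene. Slc35a5 also reached the chosen level only through the IfitmF-/- arrays. Slc35c1, the Golgi GDP-fucose transporter, had 8.21 and 8.24 on the IfitmF-/- arrays and 7.23 and 7.43 on the WT arrays (change 0.9, SE 0.1, adjusted p = 0.0223). It supplies the fucose of selectin ligands on leukocytes. Slc35d2, a relative of Slc35d1 that carries UDP-N-acetylglucosamine, had 8.31 and 8.38 on the IfitmF-/- arrays and 7.6 and 7.49 on the WT arrays (change 0.8, SE 0.09, adjusted p = 0.0212). The paired relatives Slc35d1 and Slc35d2 thus changed in opposite directions, with a 95% interval of -1.16 to -0.69 for Slc35d1 and of 0.57 to 1.04 for Slc35d2. The family members Slc35a4, Slc35b3 and Slc35c2 had changes between -0.06 and 0.05.

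Among metal carriers of the chosen level, the called genes all rose. Of 17 members, 3 rose and 0 fell, with a median change of 0.17. Over all genes of that level 9.56% rose and 8.59% fell, and the class was not tested against this background. The sugar and mitochondrial classes had the same median change. Slc31a2, a copper carrier of endosomes, had log2 intensities of 8.4 and 8.61 on the IfitmF-/- arrays and 7.84 and 7.78 on the WT arrays (change 0.69, SE 0.11, adjusted p = 0.0375). Slc30a9, a zinc exporter of mitochondria, had 8.98 and 8.86 on the IfitmF-/- arrays and 8.35 and 8.45 on the WT arrays (change 0.52, SE 0.09, adjusted p = 0.0459). Slc39a9, a zinc importer, had 8.7 and 8.79 on the IfitmF-/- arrays and 8.29 and 8.29 on the WT arrays (change 0.45, SE 0.08, adjusted p = 0.0478). All 3 differences were under 2-fold, and the call of Slc30a9 was lost after renewed quantile normalization (adjusted p = 0.055). Slc39a10, another zinc importer, had 7.89 and 8.21 on the IfitmF-/- arrays and 7.53 and 7.28 on the WT arrays (change 0.65, adjusted p = 0.0846). Its WT mean of 7.4 was under the chosen level. Slc30a7, which loads zinc into the Golgi, had a change of 0.53 (adjusted p = 0.0644). Slc39a7, which releases zinc from the endoplasmic reticulum, had a change of 0.03 (adjusted p = 0.838), and the iron importer Slc11a2 one of 0.12 (adjusted p = 0.612). Among 10 further genes of zinc and iron handling, Mtf1, the zinc-sensing transcription factor, rose (change 0.6, SE 0.1, adjusted p = 0.0393) and the other 9 were not called. All 10 reached the level of the members, where 9.56% of all genes rose, so 1 call among them was near that share.

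The 2 vesicular carriers of the Slc17 family among the members rose, though Slc17a9 reached the chosen level only through the IfitmF-/- arrays. Slc17a9, which loads ATP into vesicles, had log2 intensities of 8.26 and 8.15 on the IfitmF-/- arrays and 7.46 and 7.19 on the WT arrays (change 0.88, SE 0.13, adjusted p = 0.0322). Slc17a5, the lysosomal sialic acid exporter, had 8.6 and 8.75 on the IfitmF-/- arrays and 7.99 and 7.85 on the WT arrays (change 0.75, SE 0.1, adjusted p = 0.0301). No ion transporter was called. The 8 members that carry chloride, bicarbonate, sodium or protons had changes between -0.14 and 0.3, and Slc12a2, the sodium-potassium-chloride cotransporter, had 7.71 and 8.32 on the IfitmF-/- arrays and 8.32 and 7.86 on the WT arrays, so that the genotypes overlapped. Nor was any of the 4 nucleoside carriers called, and the equilibrative carrier Slc29a1 had 7.9 and 8.15 on the IfitmF-/- arrays and 8.42 and 8.54 on the WT arrays (change -0.45, 95% interval -0.77 to -0.13, adjusted p = 0.101). Slc28a2 and Slc28a2b, near-identical copies whose probes could share transcripts, both had a change of 0.34. Carriers of vitamins and choline (6 members) had changes between -0.44 and 0.58 and none was called. The highest of these was Slc44a1, a choline transporter (adjusted p = 0.0656).

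Some of the highest changes were in genes known from red cells and their precursors. Slc14a1, the urea transporter of red cells and kidney, had log2 intensities of 10.15 and 10.06 on the IfitmF-/- arrays and 8.85 and 9.33 on the WT arrays (change 1.01, SE 0.18, adjusted p = 0.0481). Slc25a37 (mitoferrin 1), which imports iron into mitochondria of erythroid precursors, had 10.25 and 10.27 on the IfitmF-/- arrays and 9.29 and 9.63 on the WT arrays (change 0.8, SE 0.14, adjusted p = 0.044). In both genes the first WT array was the lowest of the 4. Slc43a1, a carrier of large neutral amino acids, had 8.81 and 8.74 on the IfitmF-/- arrays and 6.28 and 7.71 on the WT arrays, and its change of 1.78, the highest of any member, was not called (SE 0.49, adjusted p = 0.11). It reached the chosen level only through the IfitmF-/- arrays. Slc6a9, a glycine transporter, had 9.2 and 8.81 on the IfitmF-/- arrays and 6.88 and 8.29 on the WT arrays (change 1.43, SE 0.5, adjusted p = 0.169). Slc43a3, a purine base transporter, had 9.58 and 9.52 on the IfitmF-/- arrays and 8.2 and 9.16 on the WT arrays (change 0.87, SE 0.34, adjusted p = 0.2).

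The red cell markers lay in a similar order. Of 7 markers 3 were measured, and the mean of the 3 was 10.4 and 10.29 on the IfitmF-/- arrays and 8.68 and 9.65 on the WT arrays. Their summed linear intensity was between 5325 and 5893 on the IfitmF-/- arrays and between 2510 and 3564 on the WT arrays, and none of the 3 was at 0. Epb42, a protein of the red cell membrane skeleton, had log2 intensities of 8.83 and 8.61 on the IfitmF-/- arrays and 5.95 and 7.78 on the WT arrays, and Slc4a1, the red cell anion exchanger, had 12.01 and 11.78 on the IfitmF-/- arrays and 9.24 and 11.19 on the WT arrays. Alas2, the erythroid enzyme of haem synthesis, did not follow them, with 10.36 and 10.47 on the IfitmF-/- arrays and 10.85 and 9.98 on the WT arrays. The part of red cell RNA in the changes of Slc14a1, Slc25a37, Slc43a1, Slc6a9 and Slc43a3 was not tested. Without the first WT array the change was 0.77 for Slc14a1 and 0.63 for Slc25a37.

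**Figure D4:**
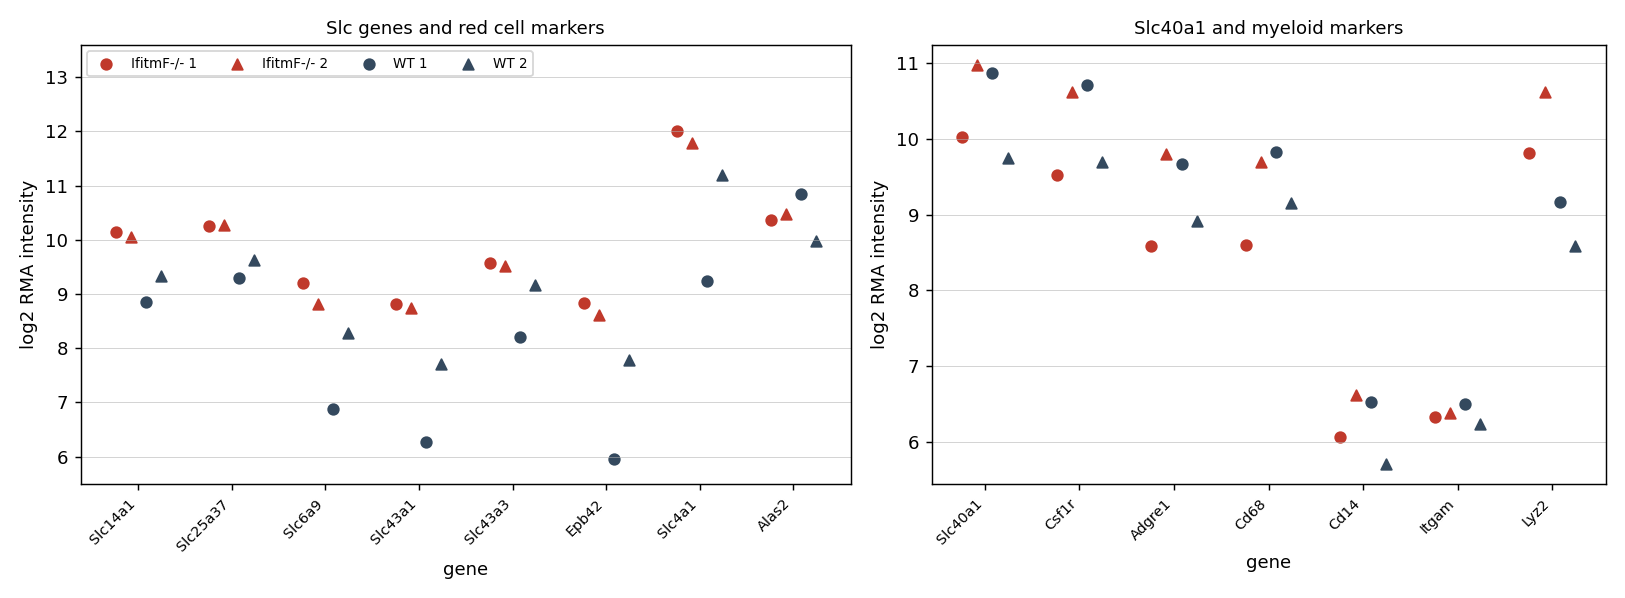
Log2 RMA intensity on each array of 5 Slc genes beside 3 red cell markers (left) and of Slc40a1 beside 6 myeloid markers (right), with IfitmF-/- arrays in red and WT arrays in dark blue, circles for replicate 1 and triangles for replicate 2. In the 5 Slc genes, Epb42 and Slc4a1 the first WT array is the lowest, while Slc40a1, Csf1r, Adgre1, Cd68 and Cd14 are highest on the second IfitmF-/- and the first WT array, Itgam barely varies, and Lyz2 is higher on both IfitmF-/- arrays.

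Slc40a1, the iron exporter ferroportin, which macrophages express strongly, varied more within genotypes than between them. It had log2 intensities of 10.03 and 10.98 on the IfitmF-/- arrays and 10.87 and 9.75 on the WT arrays (change 0.2, SE 0.5, adjusted p = 0.841). The macrophage markers Csf1r (9.52 and 10.62 on the IfitmF-/- arrays, 10.71 and 9.7 on the WT arrays) and Adgre1 (8.58 and 9.8 on the IfitmF-/- arrays, 9.67 and 8.92 on the WT arrays) were high on the same 2 arrays, as were Cd68 and Cd14 of the 6 myeloid markers. Lyz2 did not follow this order and Itgam barely varied. Lyz2 had 9.81 and 10.62 on the IfitmF-/- arrays and 9.16 and 8.59 on the WT arrays, and Itgam had 6.33 and 6.38 on the IfitmF-/- arrays and 6.5 and 6.24 on the WT arrays. The second IfitmF-/- and the first WT array were also the highest for Slc48a1, a haem transporter, with 10.24 and 10.72 on the IfitmF-/- arrays and 10.55 and 10.29 on the WT arrays.

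Genes that work with these transporters changed in small numbers. Of 21 partners and transporters outside the Slc names, 3 fell and 0 rose. Emb (embigin), a chaperone of monocarboxylate transporters, had log2 intensities of 10.93 and 10.89 on the IfitmF-/- arrays and 11.68 and 11.73 on the WT arrays (change -0.8, SE 0.08, adjusted p = 0.0187), while Bsg (basigin), the other chaperone, had a change of 0.33 (adjusted p = 0.198). The others, both below the level of the members, were Mfsd2a, a carrier of lysophospholipids (mean level 6.77, change -1.16, adjusted p = 0.0213), and Slco4a1, an organic anion carrier (mean level 6.74, change -0.76, adjusted p = 0.026). In a list of 20 genes made of Atf4, the transcription factor of the amino acid response that is known to raise Slc3a2, Slc7a5 and Slc38a2, and its targets, 2 fell and 0 rose. These were Sesn2, a leucine sensor (mean level 7.28, change -0.64, SE 0.09, adjusted p = 0.0303), and Chac1, which degrades glutathione (mean level 6.31, change -0.44, adjusted p = 0.0467). Both lay below the level of the members, and of the 14 genes of this list at that level 0 rose and 0 fell. Atf4 itself was not called (change -0.35, adjusted p = 0.0919). Of 21 genes of mTORC1 and amino acid sensing, Fnip1 (change -0.95, adjusted p = 0.016) and its partner Flcn (change -0.56, adjusted p = 0.0394) fell, and Nprl2, of the complex that restrains mTORC1 when amino acids are scarce, rose (change 0.52, adjusted p = 0.0455). Of 48 ABC transporters, which use ATP, 1 rose (Abcd3, mean level 7.18, change 0.5) and 2 fell (Abcb1a, mean level 7.7, change -0.75, and Abcb1b, mean level 6.36, change -0.7). The median change of these 4 lists lay between -0.09 and 0.06, against -0.02 over all genes. At the level of the members, 1 of 13 partners and transporters and 1 of 15 ABC transporters fell. Of the 18 mTORC1 and amino acid sensing genes at that level, 1 rose and 2 fell. Over all genes of that level 9.56% rose and 8.59% fell. The difference of the lists from this background was not tested.

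The level that chose the members fell among Slc genes of similar values. Just inside it were Slc5a3 (7.52), Slc39a3 (7.52) and Slc15a3 (7.53), and just outside were Slc20a2 (7.47), Slc2a9 (7.46) and Slc22a5 (7.45). In 100 members the mean of each genotype reached 7.5, and of these 11 rose and 13 fell. The other called genes reached the level only through the genotype in which they were higher. These were Slc35a5 (WT mean 7.15), Slc35c1 (WT mean 7.33), Slc17a9 (WT mean 7.32) and Slc25a25 (IfitmF-/- mean 7.04). In all, 8 members had a WT mean under 7.5, of which 3 were called, and 3 had an IfitmF-/- mean under 7.5, of which 1 was called. The uncalled genes of this kind included Slc43a1 (WT mean 6.99), Slc39a10 (WT mean 7.4) and Slc5a3 (IfitmF-/- mean 7.29). The values that chose these genes also give their change. Of the 251 Slc genes below the level, 6 were called, 3 in each direction. Of all 19937 genes 1708 (8.57%) were called, but 1265 of these were among the 6970 genes at the level. The Slc genes below the level that fell included the zinc importer Slc39a4 (change -0.7, adjusted p = 0.0228). Those that rose included the zinc carrier Slc30a6 (change 0.7, adjusted p = 0.0262). The lowest change among the 6 was that of Slc15a2, a peptide transporter, with log2 intensities of 5.49 and 6.58 on the IfitmF-/- arrays and 8.23 and 8.06 on the WT arrays (change -2.11, SE 0.38, adjusted p = 0.0483), which was below that of any member. The X chromosome held 2 members, Slc25a5 and Slc9a7, and neither was called. Of the 10 members with several probe sets, Slc25a36 and Slc25a40 were called by both of theirs and the others were called by none.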

How the data were processed

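Total RNA of 4 samples was measured on Affymetrix Mouse Gene 1.0 ST arrays. The authors deposited linear RMA intensities, background-corrected, quantile-normalized and summarised by probe set, so that a shift common to all genes is removed. RMA and affy were named in the submitters' processing notes, with versions and genome build not given in the sources used here. Log2 was taken of each intensity. All 34760 probe sets (21640 naming 1 gene) were fitted with limma 3.58.1 in R 4.3.3 (lmFit, eBayes, IfitmF-/- against WT, no covariate), with 2 residual degrees of freedom, a prior of 2.39 and Benjamini-Hochberg adjustment. The number of arrays limits the precision. A gene took its probe set of highest mean. The members, lists, motifs and tests were chosen with earlier results of these data known. Genes named were the called members, the brightest of each transport class, carriers known from T cell work, those at the level threshold and called genes of the lists. Other uncalled genes, such as Slc43a1, Slc6a9 and Slc43a3, and Slc15a2, Slc39a4 and Slc30a6 were named after their values had been seen. Promoter windows and gene symbols came from RefSeq tables (GRCm38.p6). The fit was tested on simulated data. Alternatives were renewed quantile normalization, median centring, trend and robust eBayes, filters on probe sets, the replicate number as a block, the t-test of the methods, other levels and leaving out each array.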

Additional observations from a re-analysis of the deposited data

How the results depend on the processing

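With each array left out in turn, limma called between 0 and 0 members higher and between 0 and 0 lower, and the median change of the members lay between 0.02 and 0.12. The smallest designs had 1 array in a genotype, which was assumed to vary like the other. The replicate numbers did not pair the arrays (correlation of the deviations of same-numbered arrays -0.124 over all probe sets and -0.533 over the members), and with the number as a replicate block 0 members were called higher and 0 lower, with 51 at an unadjusted p under 0.05. With the crossed replicate block, added after the data were seen, 1 was called higher and 10 lower. The t-test of the methods gave 29 higher and 21 lower members at its unadjusted threshold, and 0 higher and 0 lower after Benjamini-Hochberg adjustment. Adding a fold over 2 and a range of 250 left 2 higher and 4 lower. At a level of 8.0, 78 members remained, of which 7 were called higher and 13 lower, with a median change of 0.09. Median centring of each array moved the median change to 0.1, with 15 called higher and 14 lower. In the other settings (renewed quantile normalization, trend and robust eBayes, 2 filters on probe sets, the probe set of median mean and a level of 7.0) between 12 and 19 members were called higher and between 14 and 18 lower. All 28 called members kept their direction in every one of the fits that left out an array, used a block or changed the normalization, the moderation or the probe sets. For most of these fits that was fixed in advance. The arrays of these genes do not overlap between genotypes, so leaving out 1 array could not turn a direction. A block, the moderation and the filters on probe sets do not alter the change itself.

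Some uncalled genes had changes near 0 that turned sign when 1 array was left out, with a range of -0.03 to 0.27 for Slc11a2, -0.37 to 0.23 for Slc12a2, -0.03 to 0.1 for Slc39a7, -0.16 to 0.04 for Slc35a4, -0.36 to 0.76 for Slc40a1, -0.18 to 0.3 for Slc48a1 and -0.01 to 0.09 for Slc10a7. Slc39a7 was also at -0.01 after renewed quantile normalization.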
